A study of Mus musculus with 54 samples.

Results

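This comparison set the 3 tdT+ libraries of repopulated sdCAMs, the subdural CNS-associated macrophages that line leptomeninges and brain vessels, against the 3 tdT- libraries sorted from the same mice, without an immune challenge. The 6 libraries, of 54 in the series, were chosen by their labels: the tdT+ and tdT- columns of reporter mice 174, 175 and 177, treated with BLZ945 and later with PBS. All 3 mice were Ccr2CreERT2/CreERT2:R26tdT/tdT, so both the Cre and the reporter allele were homozygous in both populations. BLZ945 blocks the CSF1 receptor and so strongly reduces the macrophages of the brain. The study reports that sdCAMs refill from survivors as well as from peripheral cells of hematopoietic origin. Tamoxifen (2 mg) followed on days 0, 2 and 4 after BLZ945 to switch on tdTomato (tdT) in cells with an active Ccr2 promoter. The mice were 10 ± 3 weeks old at the first gavage. At 8 weeks after the treatment they received PBS, and 12 h later CD206+ sdCAMs and, as a further cell type, microglia (MG) were sorted from brains without choroid plexus. tdT+ sdCAMs therefore carry a mark of Ccr2 expression at the time of tamoxifen in themselves or their ancestors, whereas tdT- sdCAMs hold every CD206+ cell without the mark, including any Ccr2-lineage cell that escaped recombination. The question was how sdCAMs of the Ccr2 lineage differ at rest from the other sdCAMs of the same brain.

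Border macrophages descend from embryonic precursors or from monocytes of the bone marrow, and CCR2 is the chemokine receptor that classical monocytes need to leave the bone marrow. A subset of border macrophages carries MHC class II, a pair of an alpha and a beta chain that shows peptides of ingested proteins to CD4+ T cells. The invariant chain CD74 escorts the pair to the endosome, H2-DM exchanges the invariant chain peptide for antigen, and the coactivator CIITA switches on the genes of the whole pathway. Resident macrophages of many tissues instead carry scavenger and clearance receptors such as LYVE1, CD163, TIM4 and COLEC12.

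Class II genes are known for a short array of promoter elements, in which an X box precedes a Y box. Windows of 150 bases before the RefSeq start (GRCm38.p6) are shown for H2-Aa, H2-DMb1 and H2-Eb1, the class II genes called below whose windows hold these letters, with every match to the Y box core ATTGG and to TGATG, letters found in the X box, in capitals on either strand. They lie on chromosome 17, for H2-Aa at chr17:34287824-34287973 (minus strand), for H2-DMb1 at chr17:34153041-34153190 (plus strand) and for H2-Eb1 at chr17:34305717-34305866 (plus strand).
H2-Aa: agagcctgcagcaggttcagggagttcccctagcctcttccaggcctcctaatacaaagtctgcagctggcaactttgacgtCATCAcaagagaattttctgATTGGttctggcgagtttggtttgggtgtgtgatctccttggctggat
H2-DMb1: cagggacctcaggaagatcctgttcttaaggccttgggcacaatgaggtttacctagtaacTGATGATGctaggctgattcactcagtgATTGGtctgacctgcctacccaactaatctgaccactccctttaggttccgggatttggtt
H2-Eb1: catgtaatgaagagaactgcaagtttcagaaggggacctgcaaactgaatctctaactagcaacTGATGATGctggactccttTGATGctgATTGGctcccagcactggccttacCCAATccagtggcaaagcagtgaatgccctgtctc
Counted back from the start, ATTGG began at base -48 in H2-Aa, -61 in H2-DMb1 and -59 in H2-Eb1. TGATG stood 5′ of it in H2-DMb1 and H2-Eb1, where 2 of the copies overlap, and on the opposite strand, as CATCA, in H2-Aa. H2-DMa, also called below, has 2 windows with an entry, and neither holds ATTGG on either strand. Of the 8 genes called higher in tdT+ sdCAMs, 6 had an entry. Cd74 and H2-Ab1 had none, so their promoters were not examined. ATTGG or its reverse complement CCAAT was found in 24.5% of the 32851 windows of all promoters, so by itself it is common. TGATG with ATTGG 10 to 40 bases after it on the same strand was found in 155 windows (0.472%), among them 2 of the 7 windows of genes called higher in tdT+ sdCAMs and 0 of the 8 windows of genes called lower. These matches are a description of letters, with no test.

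The 6 libraries held 8652557 to 9850283 counts over 33280 genes, and the MG libraries of the same mice 9281357 to 10623650. Labels were first checked at the reporter locus. Gt(ROSA)26Sor, the transcript of the locus that carries the reporter, lay at 19.5, 7.28 and 16.9 CPM (counts scaled to a common library total) in tdT+ sdCAMs of mice 174, 175 and 177, and at 1.95, 2.03 and 3.05 CPM in tdT- sdCAMs. Each tdT+ library was thus above each tdT- library, and MG lay at 0.862 to 3.67 CPM. The male transcript Ddx3y was found in all 3 libraries of mouse 177 (48.8 to 95.2 CPM) and in none of mice 174 and 175, which sets mouse 177 apart but cannot tell mouse 174 from mouse 175. Log2 CPM correlated across genes with r = 0.864 to 0.925 between tdT- libraries, 0.792 to 0.819 between tdT+ libraries and 0.817 to 0.84 between both populations of a mouse, genes not being independent replicates. Between tdT+ and tdT- libraries of other mice r was 0.788 to 0.847. Hence tdT+ libraries resembled each other no more than they resembled tdT- sdCAMs, whether of the same mouse or of others. Against MG, r was 0.56 to 0.743.

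The cell type was clear in both populations. All 12 sdCAM markers passed the test as higher than in MG of the same mice, in tdT+ and in tdT- sdCAMs alike (edgeR with the mouse as block, adjusted p under 0.05 and over 1 on the log2 scale, a rule met by 6.37% of genes for tdT+ and 5.01% for tdT- sdCAMs). Mrc1, which encodes the sorting marker CD206, lay at 3189, 3416 and 3811 CPM in tdT+ sdCAMs, 4082, 5100.2 and 4608 CPM in tdT- sdCAMs and 0.282 to 1.22 CPM in MG. The 10 microglial markers summed to 7197 to 8186 CPM in tdT+, 8503 to 9648 CPM in tdT- and 40461 to 55490.3 CPM in MG libraries. Relative to the same animal's MG, their median level was 7.08 to 11.8% in tdT+ and 7.54 to 15.2% in tdT- sdCAMs. The MG library of mouse 175 stood apart, with 777 CPM of the microglial receptor P2ry12 against 8898 and 10650.2 CPM in the others. It enters only the comparisons with MG: without mouse 175, 1205 genes were called between tdT+ sdCAMs and MG and 925 between tdT- sdCAMs and MG, against 739 and 581 of 11600 with it, and without mouse 174 or 177 the counts fell to 66 and 107 for tdT+ and to 55 and 88 for tdT- sdCAMs.

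**Figure D1:**
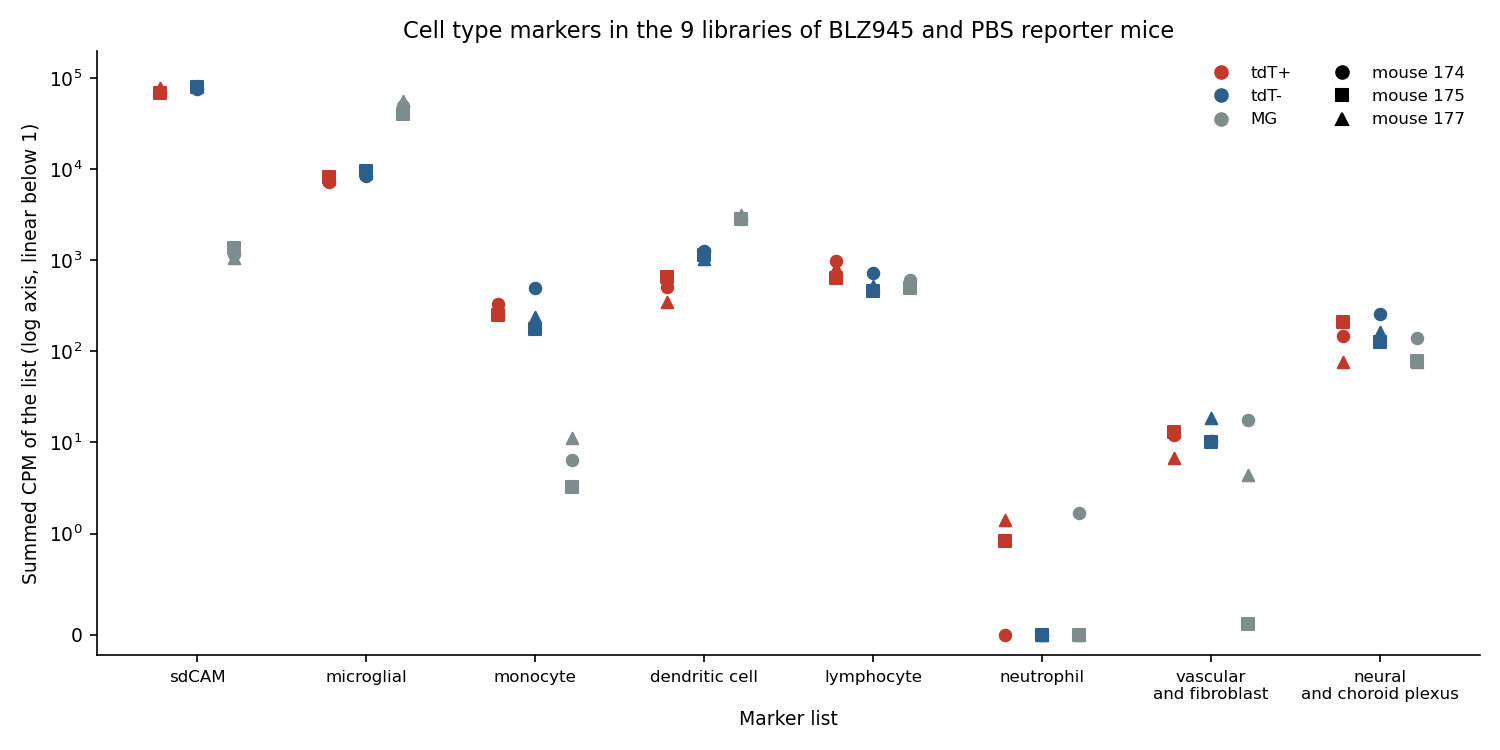
Summed CPM of cell type marker lists in each of the 9 libraries (log axis, linear below 1), by population (colour) and mouse (symbol). sdCAM markers summed to at least 68898.5 CPM in each tdT+ and tdT- library and at most 1357 CPM in MG, and neutrophil and vascular markers to at most 18.7 CPM in any library.

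Markers of other leukocytes were low but not equal. Of the 6 neutrophil transcripts listed, Ly6g, Retnlg and Ngp were at 0 in the 6 libraries. The whole list summed to at most 1.4 CPM in tdT+ libraries and to 0 in tdT- libraries. Of the lymphocyte markers, the T cell gene Cd3e lay at 27, 0 and 28.1 CPM in tdT+ and 4, 0 and 0.109 CPM in tdT- sdCAMs, and the cytotoxic granule gene Nkg7 at 9.97, 14.1 and 43.2 against 7.99, 0.406 and 0 CPM. The whole list, most of it Ighm, reached 639 to 971 CPM in the tdT+ libraries and 460 to 735 CPM in the tdT- libraries. Monocyte markers reached sums of 249.8 to 333 CPM (tdT+), of which Ccr2 made up 236 to 288 CPM, and 177 to 502 CPM (tdT-), of which Ccr2 made up 146 to 207 CPM. The highest was the tdT- library of mouse 174, which alone carried Treml4 (22.1 CPM) and most of Plac8 (79.6 CPM). Among the 6 monocyte markers tested 0 were called. Of them 5 had a negative fold change and 1, Ccr2, a positive one (median log2 fold change -1.75). Dendritic cell markers reached sums of 350.5 to 656 CPM (tdT+) and 1032 to 1256 CPM (tdT-), with 2808 to 3134 CPM in MG, and Siglech, also on the microglial list, accounted for 245 to 508 CPM of the former and 505 to 585 CPM of the latter sdCAM sums. Of this list Clec9a was at 0 in the 6 libraries, but other members were detected. Zbtb46 lay at 0 to 15.6 CPM in tdT+ and 37 to 46.8 CPM in tdT- sdCAMs, and Cd209a at 53.3 to 116 and 348 to 517 CPM. Among the 7 members tested, 6 had a negative fold change and 1 a positive one. The part of such cells in the differences below was not tested.

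Pairing by mouse, 23 of 11157 genes differed between tdT+ and tdT- sdCAMs (adjusted p under 0.05 in edgeR's quasi-likelihood test and over 1 on the log2 scale), which is 0.206% of the genes tested. Of these, 8 were higher in tdT+ sdCAMs (0.0717%) and 15 lower (0.134%). Among the 8 were 6 of the MHC class II pathway, and among the 15 were receptors and secreted proteins of resident macrophages. In bulk RNA, fewer cells with a transcript and less of it per cell cannot be told apart. With 3 mice the count was unstable: 7 genes were called without mouse 177, 10 without mouse 174 and 21 without mouse 175, and 5 (Cd74, H2-Aa, H2-Ab1, H2-Eb1 and Slc40a1) passed each time. Fits that shared further libraries called fewer. With the mouse kept as block, adding the 6 sdCAM libraries of LPS mice gave 10 calls with columns as named. Of these, 4 were among the 23, and 0 were class II genes. With 2 of the columns exchanged there were 0 calls (370 genes with an unadjusted p under 0.05 in edgeR), a matter taken up with the LPS mice at the end. Adding the 3 MG libraries also gave 0 calls (282 genes with an unadjusted p under 0.05 in edgeR). DESeq2 on the 6 libraries, with the mouse as block, instead called 370, which included all 23.

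**Figure D2:**
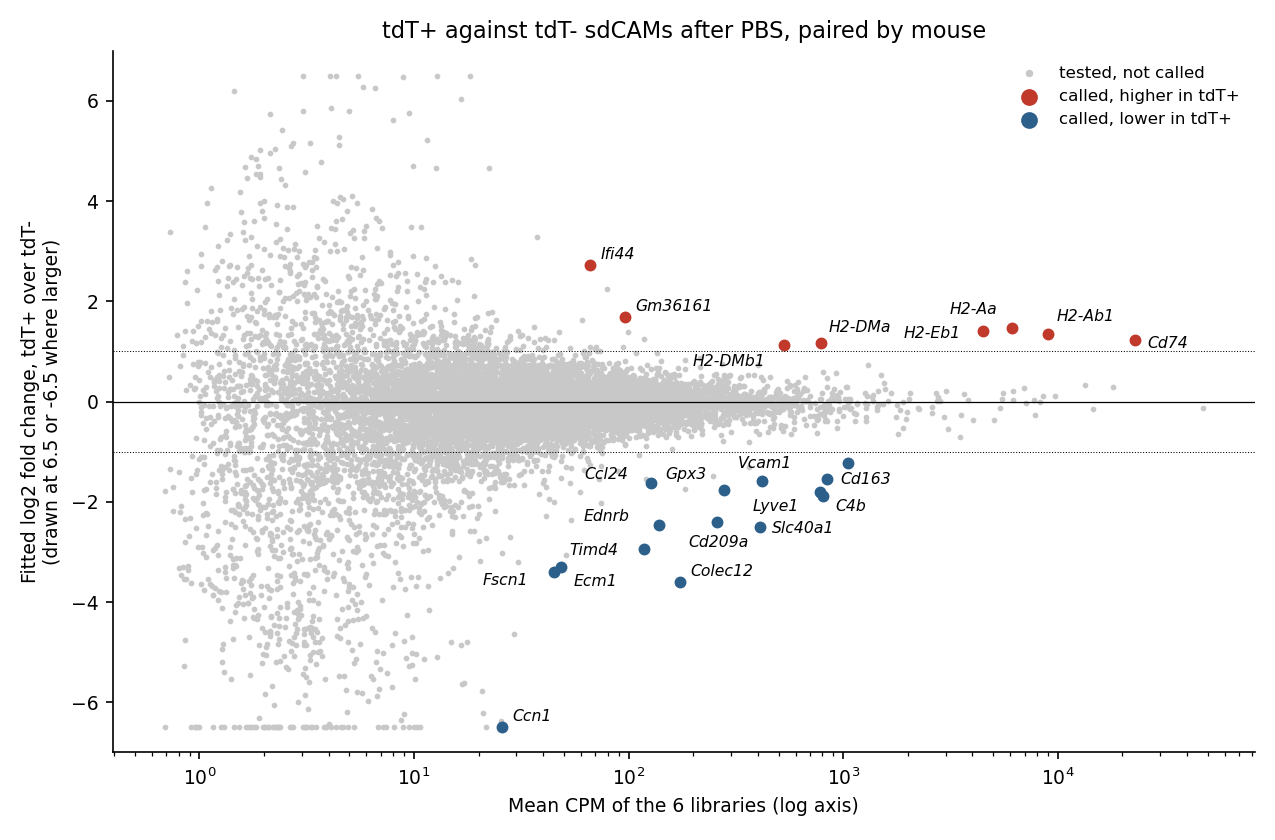
Fitted log2 fold change of tdT+ over tdT- sdCAMs after PBS against the mean CPM of the 6 libraries (log axis) for 11157 genes, with the 8 genes called higher in red, the 15 called lower in blue and fold changes beyond 6.5 drawn at 6.5. The class II genes called higher lie among the most abundant transcripts, and scatter widens below about 10 CPM.

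The class II chains and Cd74 had the smallest p values of all genes. The alpha chain H2-Aa lay at 8381, 9304 and 9215 CPM in tdT+ sdCAMs of mice 174, 175 and 177 and at 3569, 3126 and 3281 CPM in tdT- sdCAMs. Every tdT+ library was above every tdT- library, and the fold within a mouse was 2.35, 2.98 and 2.81 (fitted log2 ratio 1.46 with an SE of 0.071, adjusted p = 0.00152 in edgeR). Its partner chain H2-Ab1 lay at 12549, 13109.7 and 13085 CPM against 5228, 4972 and 5273 CPM (fitted log2 ratio 1.35 with an SE of 0.0446, adjusted p = 0.000271 in edgeR). The second beta chain H2-Eb1 lay at 6180.4, 6407 and 6814 CPM against 2529.8, 2405 and 2553 CPM (fitted log2 ratio 1.40 with an SE of 0.0547, adjusted p = 0.00052 in edgeR). For both, the groups were far apart and the 3 mice gave nearly the same fold, 2.4 to 2.64 for H2-Ab1 and 2.44 to 2.67 for H2-Eb1.

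The invariant chain Cd74 lay at 29184, 31895 and 34843 CPM in tdT+ and 13576, 13288 and 14544 CPM in tdT- sdCAMs (fitted log2 ratio 1.24 with an SE of 0.0396, adjusted p = 0.000271 in edgeR). Together these 4 transcripts took 5.63, 6.07 and 6.4% of all counts in tdT+ libraries (6.03% ± 0.385, SD, n = 3) and 2.49, 2.38 and 2.57% in tdT- libraries (2.48% ± 0.0936, SD, n = 3). tdT- sdCAMs were thus by no means devoid of class II, and MG of the same mice held 0.00542 to 0.0162% of counts in the 4 genes.

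Genes of peptide loading were called as well. H2-DMa, the alpha chain of H2-DM, lay at 970, 1113 and 1162 CPM against 529.7, 478 and 453 CPM (fitted log2 ratio 1.18 with an SE of 0.116, adjusted p = 0.0278 in edgeR), and H2-DMb1 at 707, 738 and 717 CPM against 299, 327 and 395 CPM (fitted log2 ratio 1.12 with an SE of 0.117, adjusted p = 0.0319 in edgeR). The groups did not overlap for either. Yet both lost the call whichever 1 of the 3 mice was left out, as did Ccl24, Ecm1 and Gm36161 below. H2-DMb1 shares reads with its near copy H2-DMb2 where the counting could not place them, so both values are uncertain in that respect. Unlike the chains, both were well detected in MG, at 346 to 794 CPM for H2-DMa and 147 to 237 CPM for H2-DMb1.

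Ciita, which encodes the coactivator of the pathway, lay at 65.2, 117 and 103 CPM in tdT+ and 46.8, 34.9 and 61.3 CPM in tdT- sdCAMs. The groups did not overlap, yet the difference missed the threshold over all genes (log2 fold change 1.02, 95% interval 0.30 to 1.73, edgeR adjusted p = 0.585). Of the 16 listed genes of class II presentation, 15 were tested, 6 were called higher, 0 lower, and 7 lay higher without overlap, against 5.33% of all genes tested that lay higher in tdT+ sdCAMs without overlap. The list's median log2 fold change was 0.86, that of all genes tested -0.04. The 9 others that were tested included the H2-DM inhibitor chains H2-Oa (2.99, 0 and 4.52 against 19.3, 10.8 and 7.73 CPM) and H2-Ob (48.8, 59.5 and 20.8 against 31.5, 22.8 and 24.9 CPM), with intervals of -7.04 to 0.89 and -0.35 to 1.59. Cathepsin S (Ctss), a protease that trims the invariant chain, had an interval of 0.06 to 0.34, and the costimulatory ligand Cd86 one of -0.69 to -0.18, both inside a change of 1 on the log2 scale. So higher levels were found for the presenting chains, their escort and H2-DM, and not for every gene of the list.

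**Figure D3:**
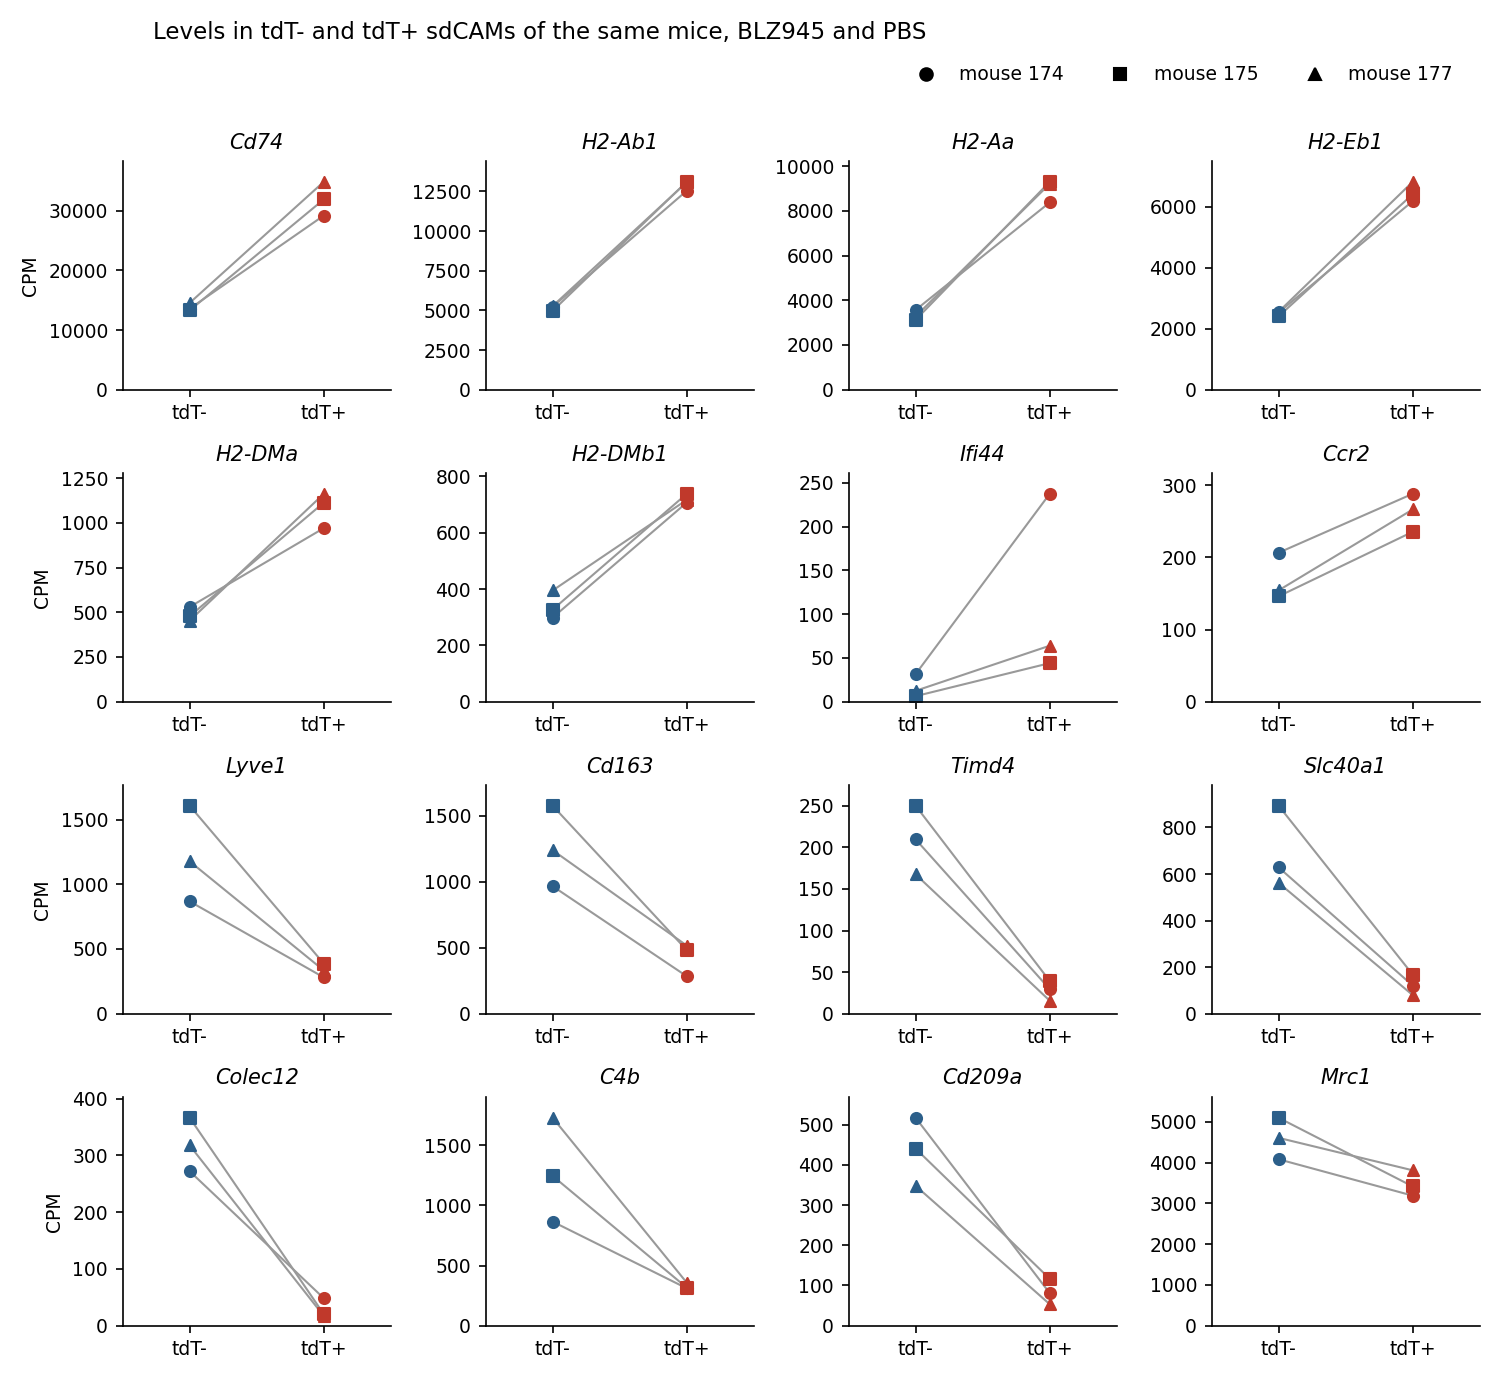
CPM of 16 genes in tdT- (blue) and tdT+ (red) sdCAMs, with grey lines joining the libraries of a mouse and a symbol for each mouse. The 6 class II genes, Ifi44 and Ccr2 lie higher in tdT+ libraries of each mouse, and Lyve1, Cd163, Timd4, Slc40a1, Colec12, C4b and Cd209a lower, while Mrc1 differs by less than 2-fold.

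The gene that drives the label was itself measured. Ccr2 lay higher in each tdT+ library than in any tdT- library (263 ± 26.5 against 169 ± 32.8 CPM, SD, n = 3, exact permutation p = 0.1 over the 6 libraries and 0.25 by sign flips over the 3 mice, in both cases the smallest that the design allows). In the fit over all genes its log2 fold change was 0.68 (95% interval 0.36 to 1.00) and its adjusted p 0.324, which is no call. MG held 2.54 to 6.57 CPM. Ccr2 transcript was thus present in both populations at rest.

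Outside class II, Ifi44 and the predicted gene Gm36161 were called higher. Ifi44, an interferon-induced gene, lay at 237, 44 and 63.9 CPM against 31.6, 6.29 and 12.4 CPM (fitted log2 ratio 2.72 with an SE of 0.243, adjusted p = 0.0189 in edgeR). Its level differed more between mice than the class II genes did, mouse 174 being highest in both populations, while each tdT+ library was above each tdT- library. Gm36161 lay at 102 to 185 CPM in tdT+ and 29.3 to 63.4 CPM in tdT- sdCAMs (edgeR adjusted p = 0.0319). Next in order of p, and not past the threshold, came Anxa2r1 (76.9 to 99.4 against 24.1 to 33 CPM, edgeR adjusted p = 0.0981), the inhibitory lectin receptor Clec12a (474 to 523 against 289 to 321 CPM, edgeR adjusted p = 0.112) and Il2rg, the cytokine receptor common gamma chain (153 to 179 against 56.5 to 90.8 CPM, edgeR adjusted p = 0.113). All 3 lay higher in tdT+ sdCAMs of each mouse with no overlap.

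Several receptors were among the lower genes. Lyve1, a hyaluronan receptor, lay at 280.4, 387 and 334 CPM in tdT+ sdCAMs and at 868, 1607 and 1177 CPM in tdT- sdCAMs (fitted log2 ratio -1.81 with an SE of 0.117, adjusted p = 0.00581 in edgeR). Cd163, the haemoglobin scavenger receptor, lay at 284, 482 and 516 CPM against 966, 1576 and 1239 CPM (fitted log2 ratio -1.55 with an SE of 0.125, adjusted p = 0.0132 in edgeR). Timd4, a phosphatidylserine receptor used in the uptake of dying cells, lay at 29.5, 39.3 and 15.6 CPM against 209.6, 250 and 167 CPM (fitted log2 ratio -2.94 with an SE of 0.216, adjusted p = 0.011 in edgeR). In these genes the highest tdT+ library stayed below the lowest tdT- library, and MG held 0 to 0.102 CPM.

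The scavenger collectin Colec12 showed one of the steepest differences, at 48.3, 20.3 and 17 CPM against 272, 366 and 318 CPM (fitted log2 ratio -3.60 with an SE of 0.393, adjusted p = 0.0363 in edgeR). The lectin Cd209a lay at 80.9, 116 and 53.3 CPM against 517, 440.1 and 348 CPM (fitted log2 ratio -2.40 with an SE of 0.193, adjusted p = 0.0132 in edgeR), and Ednrb, an endothelin receptor, at 38.6, 51.8 and 33.3 CPM against 169, 293 and 243 CPM (fitted log2 ratio -2.47 with an SE of 0.202, adjusted p = 0.0132 in edgeR). All 3 were at or below 0.108 CPM in MG. Cd209a also belongs to the list of dendritic cell markers, of which 7 of 12 were tested, 2 were called lower (Cd209a and Fscn1) and 0 higher, with a median log2 fold change of -2.40. Zbtb46 of that list lay at 0, 11.2 and 15.6 against 37, 46.8 and 43.6 CPM and was not called.

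Of 20 scavenger and resident receptors, 18 were tested, 4 were called lower (Lyve1, Cd163, Timd4 and Colec12) and 0 higher, and 9 lay lower without overlap, as did 8.69% of all genes tested. The list's median log2 fold change was -0.56. The receptors did not move alike. Cd209b, a further lectin of this family, lay at 15.3 to 18.9 CPM against 61.4 to 128 CPM and just missed the threshold (edgeR adjusted p = 0.0983), the folate receptor Folr2 lay at 111 to 140.4 against 170.4 to 182 CPM, and the scavenger receptor Cd36 lay on the other side, at 439 to 701 against 337 to 439 CPM (interval 0.22 to 0.76). In 11 of the 18 the 95% interval stayed within a change of 1 on the log2 scale, among them Mrc1 (-0.56 to -0.19) and Stab1 (-0.99 to -0.29). Of 12 sdCAM markers 2 were called, Lyve1 and Cd163, and 10 had intervals within 1, among them Pf4 (-0.04 to 0.37), Lyz2 (0.21 to 0.46) and Apoe (-0.19 to -0.05). For these 10 markers the difference was thus bounded at 2-fold.

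**Figure D4:**
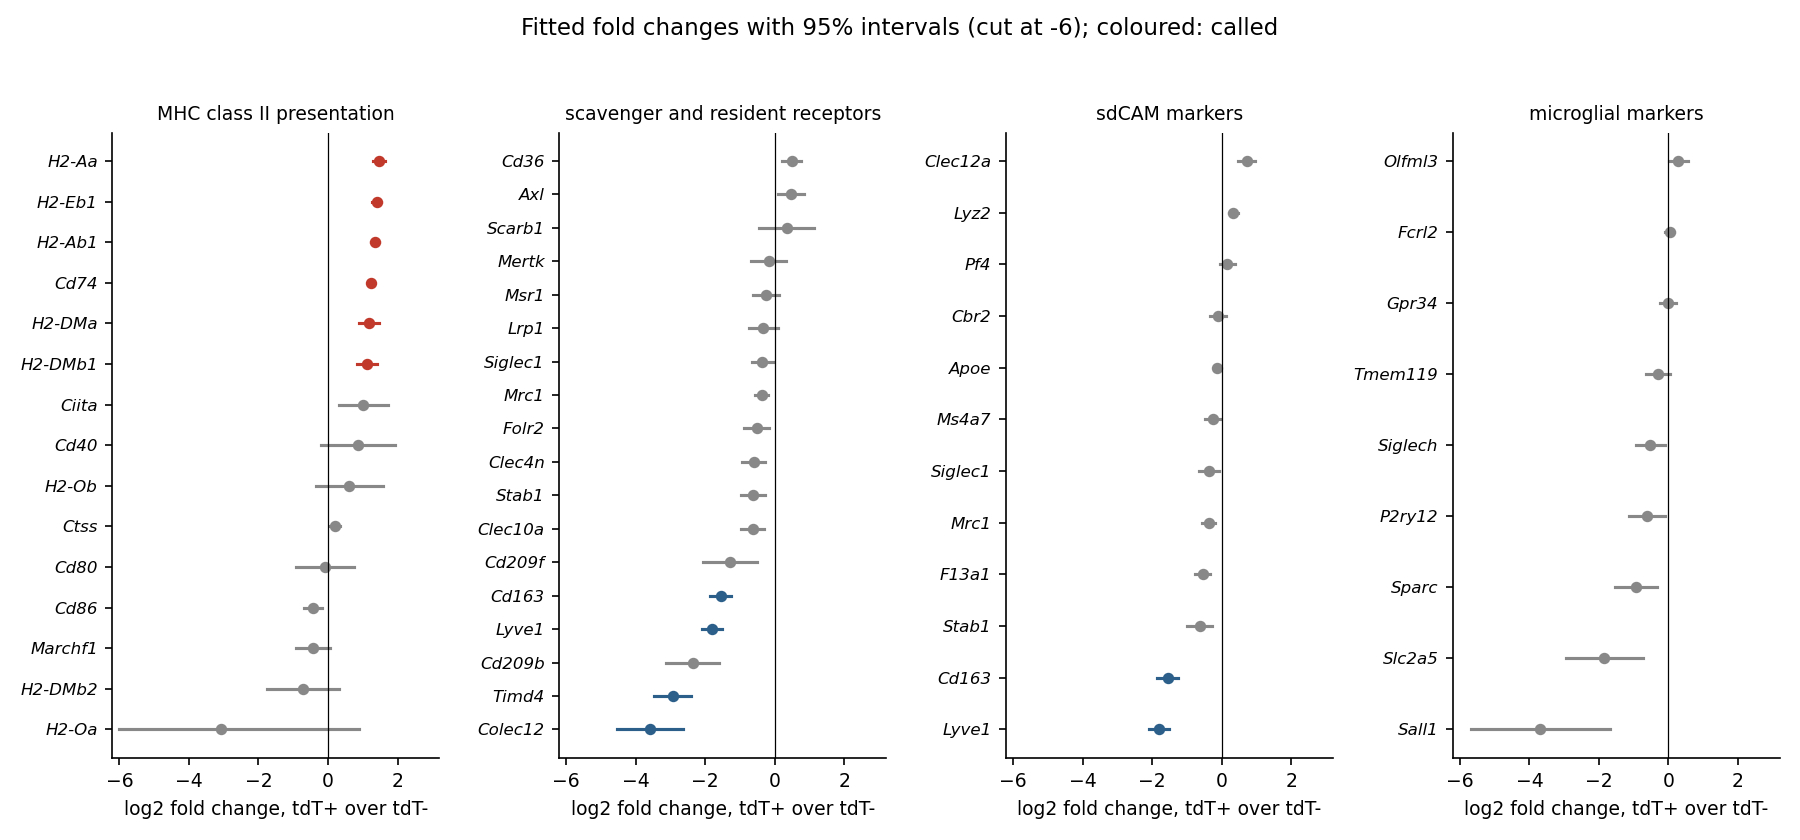
Fitted log2 fold change of tdT+ over tdT- sdCAMs with 95% intervals, cut at -6, for tested genes of 4 lists, called genes in colour. The called class II genes and the called receptors lie on opposite sides of 0, and 10 of 12 intervals of sdCAM markers lie within 1.

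Slc40a1, C4b and Gpx3 were also called lower. Slc40a1, the iron exporter ferroportin, lay at 121, 168 and 79.8 CPM in tdT+ and 628, 893 and 562 CPM in tdT- sdCAMs (fitted log2 ratio -2.51 with an SE of 0.136, adjusted p = 0.00241 in edgeR), with 385, 105 and 498 CPM in MG. Complement C4b lay at 311, 316 and 358 CPM against 865, 1245 and 1728 CPM (fitted log2 ratio -1.88 with an SE of 0.164, adjusted p = 0.0182 in edgeR) and at no more than 5.39 CPM in MG, with the reservation that its near copy C4a can take a share of its reads. Gpx3, a secreted glutathione peroxidase, lay at 103, 153 and 104 CPM against 285, 663 and 360.5 CPM (fitted log2 ratio -1.76 with an SE of 0.166, adjusted p = 0.0227 in edgeR) and had no count in MG.

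The adhesion molecule Vcam1 lay at 132, 229 and 267 CPM against 425, 831 and 639.6 CPM (fitted log2 ratio -1.57 with an SE of 0.148, adjusted p = 0.0227 in edgeR). The eosinophil attractant Ccl24 lay at 50.8, 78.5 and 57.5 CPM against 181, 207 and 192 CPM (fitted log2 ratio -1.63 with an SE of 0.17, adjusted p = 0.0319 in edgeR). The secreted matrix protein Ecm1 lay at 6.32, 12 and 6.67 CPM against 40.2, 128 and 98.3 CPM (fitted log2 ratio -3.30 with an SE of 0.343, adjusted p = 0.0319 in edgeR). No tdT+ value reached the tdT- range in any of the 3. Vcam1 was the single call among 20 tested genes of adhesion and migration, whose median log2 fold change was 0.04.

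For a few genes the tdT+ libraries held little or nothing. Ccn1, a secreted matricellular protein, had no count in tdT+ sdCAMs and 63.1, 25.2 and 66.4 CPM in tdT- sdCAMs, at least 154-fold lower when 3 counts a library are taken as the floor (edgeR adjusted p = 0.0475). The transporter gene Slc10a6 had no count against 9.63, 31.5 and 21 CPM, and the lipid phosphatase Plpp1 none against 6.15, 2.23 and 7.62 CPM, neither past the threshold (edgeR adjusted p = 0.223 and 0.624). Fscn1, an actin-bundling protein, lay at 7.98, 7.74 and 6.24 CPM against 82.9, 53.2 and 111 CPM (fitted log2 ratio -3.40 with an SE of 0.369, adjusted p = 0.0358 in edgeR). MG held 454 to 803 CPM of Fscn1 and 70.1 to 89.1 CPM of Plpp1, levels above those of tdT- sdCAMs, but none of Slc10a6.

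Most microglial markers also had lower values in tdT+ libraries, though 0 of 10 were called. Sall1, a transcription factor of microglia, lay at 0.887, 0.578 and 5.92 CPM in tdT+, 14.5, 18.2 and 29.9 CPM in tdT- and 475, 356 and 496 CPM in MG libraries (log2 fold change -3.69, interval -5.69 to -1.68, edgeR adjusted p = 0.429). P2ry12 lay at 549, 493 and 724 CPM against 962, 1066 and 731 CPM (interval -1.12 to -0.11). Of the 10 markers 8 had a negative fold change, 5 lay lower without overlap (8.69% of all genes tested did), and the list's median was -0.53. The part of microglial RNA in the lower level of Fscn1, Plpp1 and Slc40a1 was not tested. For Lyve1, Timd4, Cd163, Cd209a, Ednrb, Gpx3 and Colec12, MG levels were at or near 0.

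Both lists of origin-associated sdCAM genes, named in the study from another reporter line, split by direction. Of the 6 genes associated there with hematopoietic origin, 4 were called higher and 0 lower, with a median of 1.29, and the others were Ccr2 and Fxyd5 (343, 279 and 346 against 318, 188 and 198 CPM, interval 0.13 to 0.91). Of the 5 associated with yolk sac origin, Lyve1, Cd163, C4b and Colec12 were called lower and Folr2 was not (interval -0.88 to -0.15), with a median of -1.81. Both lists were chosen with results of these libraries known, so their counts are no independent evidence.

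Other programmes showed no call. The 12 genes that the study linked to tdT+ or tdT- sdCAMs after LPS gave 0 calls at rest (median log2 fold change 0.16, 7 intervals within 1). Most were linked there to tdT- and the rest to tdT+ sdCAMs, so this median mixes both directions. At rest 10 of the 12 had a positive fold change and 2 a negative one. Transcription factors of macrophages gave 0 calls among 26 tested (median -0.05), with 13 intervals within 1 on the log2 scale, the Toll-like receptor 4 pathway 0 among 12 (median -0.05) and the CSF1 receptor axis 0 among 5 (median -0.09). Csf1r, the target of BLZ945, lay at 5861, 7478 and 7757 CPM against 7188, 8619 and 10006 CPM (interval -0.38 to -0.14). Tlr4, the receptor for lipopolysaccharide (LPS), lay at 309, 262 and 294 CPM against 288, 391 and 290 CPM (interval -0.53 to 0.29). Genes that respond to LPS gave 0 calls among 11 and proliferation genes 0 among 6, where 2 and 0 intervals stayed within 1, so for most of these transcripts a 2-fold change lies inside the interval. Immediate early genes gave 0 calls among 13. Jun, a transcription factor of this group, differed between mice more than between populations and lay at 554, 361 and 149.9 CPM in tdT+ and 553, 333 and 136 CPM in tdT- sdCAMs of mice 174, 175 and 177.

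How small a difference the 3 pairs could resolve depended on the level. The 95% interval reached a median of 1.02 to either side on the log2 scale over all genes tested, 0.784 for 8275 genes averaging 10 CPM or more and 0.387 for 1759 averaging 100 CPM or more. Of the latter, 1635 (93%) had intervals within a change of 1. For most genes of at least 100 CPM the absence of a call thus comes with a bound of 2-fold, while the intervals of rarer transcripts are mostly wider than that.

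In other mice of the same genotype and treatment, LPS had been given 12 h before the sort, and the direction of the 23 genes was looked up there. Whole libraries shifted in these pairs, by a median of 1.53, 0.94 and 0.87 on the log2 scale over the genes tested in mice 5, 1 and 7, so directions are given relative to that median, where by construction 50% of genes lie on either side. The tdT+ library of mouse 5 held microglial transcripts that its label does not cover, beside sdCAM transcripts. It had 1091 CPM of P2ry12 and 151 CPM of Sall1, close to the 1269 and 148 CPM in MG of that mouse. The tdT- library held 45.3 and 5.26 CPM. The sdCAM markers Mrc1 and Pf4 lay at 375 and 34.2 CPM in the tdT+ library. The tdT- library held 327 and 1341 CPM of them, and MG 0.128 CPM of each. With this tdT+ library, 14 of the 23 had the direction seen at rest in mouse 5. The tdT- column of mouse 1 and the tdT+ column of mouse 7 carry each other's index number, and their sex transcripts go with the index number and against the name. MG and tdT+ cells of mouse 1 held 58.4 and 166 CPM of Ddx3y and at most 0.485 CPM of Xist, the transcript of the inactive X chromosome, whereas its tdT- column held 323 CPM of Xist and no Ddx3y. In mouse 7, MG and tdT- cells held 974 and 323 CPM of Xist and no Ddx3y, whereas the tdT+ column held 128 CPM of Ddx3y and no Xist. With the columns exchanged, the sex transcripts matched within mouse 1 and within mouse 7, and 19 of 23 genes in mouse 1 and 22 of 23 in mouse 7 had the direction seen at rest, with median shifts of -0.02 and -0.10. As named, the counts were 7 of 23 and 14 of 23.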

How the data were processed

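RNA of sorted macrophages was reverse transcribed and amplified with a low-input SMARTer kit, made into libraries with Nextera XT and sequenced single-read without molecular identifiers. The authors aligned reads with STAR 2.7.11a and counted them with featureCounts 2.0.8 (submitters' processing notes). The sources name more than one mouse genome build, so no coordinates of the count table are given, and a strand setting is not given in the sources used here. The deposited table holds raw counts per gene for 18 reporter libraries, each column matched to a label, with 0 columns left over. Tables of other genotypes were not used.

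Levels are plain CPM, counts scaled by the library's total. edgeR 4.0.16 (R 4.3.3) was fitted to the 6 libraries with filterByExpr, TMM scaling and mouse plus tdT as terms (glmQLFit, glmQLFTest, two-sided, Benjamini-Hochberg over all genes tested). Genes were called when the adjusted p was below 0.05 and the fitted log2 ratio beyond 1 in either direction. SE is the log2 fold change over the square root of F, and intervals are 95%. Genes with no count in a group are given against a floor of 3 counts a library, which covers counting error only. The intervals come from the fit and include variation of the tdT+ over tdT- ratio between mice, not of the level, which the block removes. They rest on 2 residual and 4.27 prior degrees of freedom, the latter drawn from all genes. sdCAMs were compared with MG in a fit of 9 libraries. DESeq2 1.42.0 and limma 3.58.1 served as alternatives.

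Both populations of a mouse came from the same animal, and the deviations of such pairs from their group means correlated with r = 0.0519 to 0.0764, against -0.0535 to 0.00218 for unmatched pairs. Deviations cancel within a group, so this contrast of matched with unmatched pairs is partly built in. Members and gene lists were chosen with earlier results of these data known. Named are the calls, the 10 genes higher and 10 lower with the smallest p among genes of at least 10 CPM without overlap, members of the lists, and Ccr2, Fscn1, Plpp1 and Slc10a6. Gt(ROSA)26Sor, Ddx3y, Xist and, averaging under 10 CPM, H2-Oa, Cd3e, Treml4, Clec9a, Ly6g, Retnlg and Ngp were named after values were seen. Genes that are not reported here by name remain in the counts and list summaries. A fit of the LPS comparison without mouse 5, and the 12-library fit with the block and 2 LPS columns exchanged, were likewise chosen after seeing the data.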

Additional observations from a re-analysis of the deposited data

Results flagged for a closer look

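The values that follow rest on 2 LPS columns whose sex transcripts go against the mouse in their name, and none remains when these are exchanged. With columns assigned by name, the tdT+ over tdT- difference after LPS differed from that after PBS in 9 of the 23 genes, 8 of which are given here (interaction term of an edgeR fit of 12 sdCAM libraries with the mouse as block, adjusted p under 0.05 over all genes, a threshold passed by 704 of 12708 genes, 5.54%). On the log2 scale the term, the ratio after LPS minus that after PBS, was -2.83 for H2-Aa (edgeR adjusted p = 0.00189), -2.28 for H2-Ab1 (edgeR adjusted p = 0.0164) and -2.03 for H2-Eb1 (edgeR adjusted p = 0.0471). It was 4.85 for Slc40a1 (edgeR adjusted p = 0.0204), 3.62 for Cd209a (edgeR adjusted p = 0.0045), 3.10 for Fscn1 (edgeR adjusted p = 0.00143) and 1.76 for Vcam1 (edgeR adjusted p = 0.0296). For Ccn1 it was 11.40 (edgeR adjusted p = 0.00648), which depends on the prior count because resting tdT+ sdCAMs had none. With the 2 LPS columns of conflicting index number exchanged, none of the 23 and 0 of all genes passed (452 genes at an unadjusted p under 0.05 in edgeR, adjusted p = 0.667 for Fscn1 and 0.999 or more for the others). The tdT+ library of mouse 5 after LPS carried microglial transcripts at MG levels, beside sdCAM markers. Without mouse 5, a choice made after seeing the data, 17 of the 23 and 6.73% of all genes passed with columns as named, H2-Aa at -2.49 and Lyve1 at 3.58 among them and Cd209a at 3.74, while Slc40a1 at 2.79 did not (edgeR adjusted p = 0.0897). With columns exchanged and mouse 5 left out, 0 of the 23 passed (edgeR, 664 genes at an unadjusted p under 0.05).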

How the results depend on the processing

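The count of 23 calls stayed within 1.5 times under RLE size factors, robust edgeR, limma-voom with the block, a mean of at least 10 counts, the study's low-count rule, omission of its gene classes and no fold limit. Without the replicate block it was 30, of which 18 were among the 23. It was 41 with no filter beyond 1 count, 123 with DESeq2 without the block and 370 with DESeq2 with the block. With the 12 sdCAM libraries it was 3 without the block, columns as named or exchanged, and with it 10 as named and 0 exchanged (370 genes at an unadjusted p under 0.05 in edgeR), and with MG added it was 0 (282 genes at an unadjusted p under 0.05 in edgeR). Leaving out a mouse gave 7 to 21 calls and, without the block, leaving out 1 library gave 11, 25 and 7 calls for the tdT+ libraries of mice 174, 175 and 177 and 8, 6 and 4 for their tdT- libraries. Cd74, H2-Aa, H2-Ab1 and H2-Eb1 were called in 19 of 24 alternatives each, all but the fits with LPS or MG libraries, and no called gene changed sign in any. DESeq2 called 1989 genes between tdT+ sdCAMs and MG and 1680 between tdT- sdCAMs and MG, and leaving out a mouse gave 66 to 1205 and 55 to 925. Over all alternatives the median log2 fold change of class II presentation genes ranged from 0.57 to 1.13 and that of scavenger and resident receptors from -0.67 to -0.47. The cause of these shifts was not tested.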
